A study of Mus musculus with 6 samples.

Results

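The genes described here mark macrophages and related myeloid cells or, like *Csf1*, signal to them. They were examined in RNA of whole kidneys from mice with polycystic kidney disease. The list holds 40 genes named by hand for macrophage identity, Fc receptors, scavenger and lectin receptors, the phagocyte oxidase and repair-type activation. Of these, 39 were found by symbol among the 23276 gene symbols of the authors' table. The remaining gene, *Spi1*, is listed under its older symbol *Sfpi1* and is described separately. The transcript row with the highest mean level stands for a gene throughout.

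Total RNA was sequenced from 6 kidneys taken at postnatal day 22. All mice carried a Cre recombinase under the *Ksp* promoter, which is active in kidney tubules, together with 1 floxed and 1 hypomorphic (RC) allele of *Pkd1*. In 3 of the mice (*Pkd1* F/RC SKO) this was the whole genotype, and the other 3 (*Pkd1* F/RC DKO) also carried floxed alleles of the miR17~92 cluster on both copies of the chromosome. The *Ksp* promoter is not known to drive Cre in macrophages, so the genotypes differ by design in the tubule epithelium.

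The table holds 1 abundance value for each transcript, the authors' mean over all 6 kidneys as log2 CPM (read counts scaled to a common library size), converted here to CPM. No kidney has a value of its own in it. The spread between mice and the depth of each library are therefore unknown, no value below carries an error, and the groups labelled SKO and DKO were not compared here. The values describe how abundant each transcript was across both groups together. The lowest value in the table, 0.0263 CPM, was shared by 4617 of the 54721 rows and was taken as the floor. In RNA of a whole kidney, a transcript from few cells and a transcript made sparsely by more cells cannot be told apart.

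Macrophages of the kidney lie between the tubules and depend on signals through the receptor for colony-stimulating factor 1. They recognise antibody-coated particles through Fc receptors, take up debris and microbes through scavenger and lectin receptors, kill with an oxidase that makes superoxide, and digest what they take up with lysosomal enzymes. Activated macrophages have been grouped into an inflammatory type, marked by *Nos2*, and a repair type, marked in mice by *Arg1*, *Chi3l3* and *Retnla*. In polycystic kidneys macrophages are known to gather around cysts.

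All measured genes of macrophage identity and of the colony-stimulating factor axis were above 1 CPM in these kidneys. The repair-type and activation genes were the lowest group of the list. Of the 39 members, 32 (82.1%) had a mean of at least 1 CPM, compared with 55.9% of all gene symbols. The 8 members at or above 10 CPM were *Cyba*, *Csf1r*, *Csf1*, *Lyz2*, *Mpeg1*, *Ctss*, *Mrc1* and *Fcgr2b*. The 7 members under 1 CPM were *Fcgr4*, *Retnla*, *Ncf4*, *Trem2*, *Gpnmb*, *Arg1* and *Chi3l3*. Because a long transcript gathers more reads than a short one, levels of different genes were compared as CPM per kb of transcript. On that scale the median member stood at 1.61 CPM per kb, against 1.01 over all 22809 genes with a known length and 4.20 over those with at least 1 CPM. Per length, 27 of the 39 members lay above the median of all genes and 9 above the median of genes with at least 1 CPM. Levels per length were also computed with the median length of all annotated transcripts of a gene and with all rows of a gene summed. The median length was equal to the representative one for *Lyz2* (1316 bases) but far shorter for some genes. It was 379 against 2600 bases for *Laptm5* and 792 against 4752 for *Cybb*, which raises their level per length. Several orders between single genes turned under these choices, and the values are given beside them. Rows of a gene can overlap, so summing can count a read more than once. This can raise genes with several rows relative to genes with a single row.

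**Figure D1:**
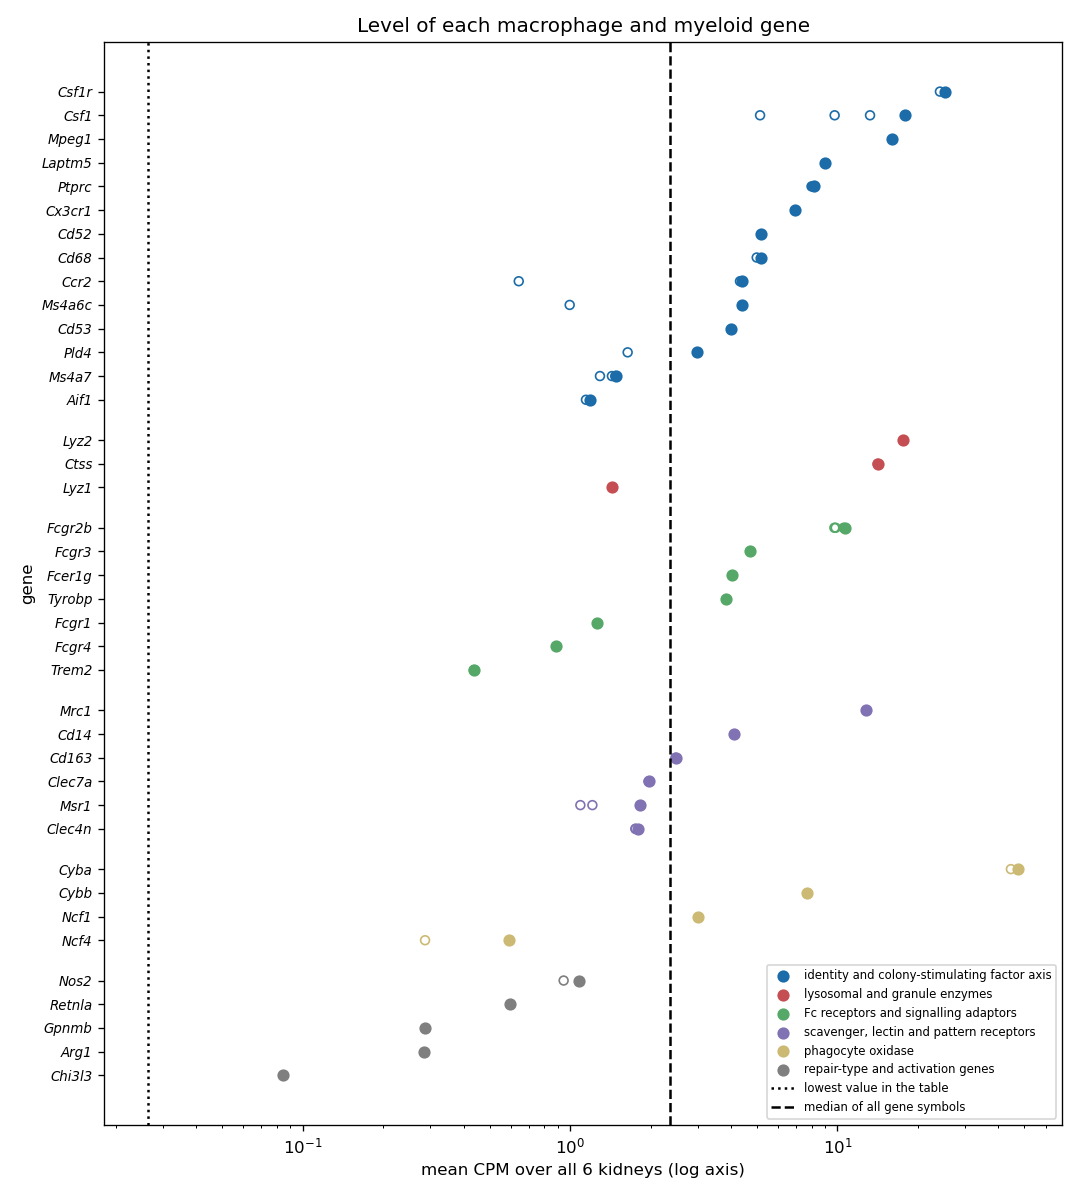
Mean CPM over all 6 kidneys (log axis) of each of the 39 genes, ordered within 6 role groups. Filled points are the transcript that stands for the gene, open points its other transcript rows, the dotted line the lowest value in the table (0.0263 CPM) and the dashed line the median of all gene symbols (2.36 CPM). Points run from *Cyba* at 47.5 CPM to *Chi3l3* at 0.0842 CPM, and 4 of the 5 repair-type and activation genes lie under 1 CPM.

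The colony-stimulating factor axis was examined first. *Csf1r*, the receptor that macrophages need to survive, had a mean of 25.3 CPM, second among the members, and was more abundant than 84.3% of all gene symbols. Per length it stood at 6.55 CPM per kb. Its ligand *Csf1* had 17.8 CPM and 4.27 CPM per kb, so the receptor's level per length was 1.53 times that of the ligand, 2.12 times with the median length and 1.16 times with summed rows. *Il34*, the second known ligand of this receptor, was not a member and was named after its value was seen. It stood at 3.87 CPM per kb, beside 4.27 CPM per kb for *Csf1*, and with the median length it was the higher of the pair, at 10.3 against 8.51 CPM per kb. Without values of single kidneys, whether such a small difference exceeds the spread between mice is unknown.

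The 4 rows of *Csf1* were not alike. The row NM_007778 had 17.8 CPM, NM_001113529 had 13.2 CPM, NM_001113530 had 9.76 CPM, and a transcript assembled from the reads had 5.14 CPM. *Csf1r* had 2 rows, at 25.3 and 24.2 CPM. Overlapping transcripts of a gene thus had levels that were close in some genes and spread in others.

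*Spi1* encodes PU.1, the transcription factor that myeloid cells require. Under the symbol *Sfpi1* it had 1.53 CPM and 0.752 CPM per kb, below the median of all genes per length. With the median length it had 2.64 CPM per kb and lay above that median, which was then 1.56. It was looked up after the exact symbol was not found.

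Genes that are expressed across blood cells or across macrophages formed the largest group. All 14 measured identity genes had at least 1 CPM, and all 14 lay above the median of all genes per length, or 11 of 14 with the median length. *Cd52*, a short surface glycoprotein of lymphocytes and macrophages, stood at 10.1 CPM per kb from 5.20 CPM. This was the highest level of the group with the length of the representative transcript, but with the median length *Laptm5* (23.8) and *Csf1r* (18.0) exceeded it, and with summed rows *Csf1r* (12.8) and *Csf1* (11.0) did. *Cd68*, a lysosomal membrane protein widely used to stain macrophages, had 5.19 CPM and 4.22 CPM per kb. *Mpeg1*, a pore-forming protein of macrophages, had 16.0 CPM and 3.69 CPM per kb. *Laptm5*, a lysosomal membrane protein of blood cells, had 9.01 CPM and 3.47 CPM per kb.

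*Ptprc*, which encodes the pan-leukocyte protein CD45, had 8.20 CPM but only 1.62 CPM per kb, since its transcript is 5074 bases long. *Cd53*, a tetraspanin of leukocytes, had 2.30 CPM per kb and *Ms4a6c*, a member of the membrane-spanning 4A family, 2.38 CPM per kb. A pair of chemokine receptors used to tell kinds of monocytes and macrophages apart were both measured above 1 CPM. *Cx3cr1*, the fractalkine receptor, stood at 1.85 CPM per kb and *Ccr2*, the receptor through which monocytes are recruited, at 1.47 CPM per kb. The ratio of *Cx3cr1* to *Ccr2* was 1.25 per length but 0.590 with all rows summed, so the order of the pair turns with that choice. *Pld4*, an endolysosomal exonuclease, had 2.98 CPM in its highest row and 1.64 CPM in the other. *Aif1*, which encodes the marker IBA1, stood at 1.35 CPM per kb, and its level per length was exceeded 3.11-fold by *Cd68*. *Ms4a7* stood at 1.11 CPM per kb, and at 4.26 CPM per kb with its 4 rows summed.

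The lysosomal and granule enzymes were the most abundant group per length, with a median of 10.4 CPM per kb over 3 genes, also with the median length (10.4) and with summed rows (13.4). *Lyz2*, the lysozyme of macrophages and neutrophils, had 17.7 CPM and 13.4 CPM per kb, more than 90.2% of all genes with a length. *Ctss*, the cathepsin that trims the invariant chain of MHC class II, had 14.1 CPM in each of its 2 rows and 10.4 CPM per kb. *Lyz1*, the lysozyme gene best known from Paneth cells of the gut, had 1.44 CPM and 1.14 CPM per kb. Per length *Lyz2* was 11.8-fold above *Lyz1*.

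The 2 lysozyme genes are neighbours on chromosome 10 of GRCm38, the assembly also known as mm10. *Lyz2* runs from 117277541 to 117282272 and *Lyz1* from 117287795 to 117292868. Their coding sequences have the same length, 447 bases, and differ at 22 of them, so that 95.1% of the bases are identical. The first 120 coding bases of each are shown because 11 of the 22 differences fall there and such bases allow a read to be assigned to 1 of the genes. Capitals mark the bases at which the 2 genes differ.

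Lyz2: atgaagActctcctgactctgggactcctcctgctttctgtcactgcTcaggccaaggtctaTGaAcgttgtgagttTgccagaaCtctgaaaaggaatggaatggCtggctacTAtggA
Lyz1: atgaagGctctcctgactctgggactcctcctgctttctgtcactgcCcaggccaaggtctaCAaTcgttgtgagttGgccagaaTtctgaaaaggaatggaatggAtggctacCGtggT

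The longest stretch that both transcripts share without a difference is 118 bases, longer than a 51-base read. Of the 1266 windows of 51 bases in the *Lyz2* transcript, 187 (14.8%) also occur in *Lyz1*, and the same 187 windows make up 15.4% of the *Lyz1* transcript. A read from such a window maps to both genes, and the authors discarded alignments with a mapping quality under 10. How far this lowered either level was not tested.

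Fc receptors bind the constant part of antibodies and signal through short adaptor proteins. *Tyrobp*, the adaptor DAP12, had 6.82 CPM per kb and *Fcer1g*, the Fc receptor gamma chain, had 6.01 CPM per kb. Their mean levels were 3.84 and 4.05 CPM, and which of the 2 is higher depends on whether length is taken into account. *Fcgr3*, an activating receptor, had 4.70 CPM and 3.49 CPM per kb. *Fcgr2b*, the inhibitory receptor, had 10.7 CPM and 3.01 CPM per kb, with a transcript of 3544 bases. With the median length *Fcgr2b* had 7.29 CPM per kb and with summed rows 11.5, above *Fcgr3* and above both adaptors. The adaptors were therefore the highest of the group only with the length of the representative transcript.

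The other receptors of the group were lower than *Fcgr3* under each choice. The level per length of *Fcgr3* was 7.15-fold above that of *Fcgr1*, the high-affinity receptor, which had 1.26 CPM and 0.488 CPM per kb, and 4.52-fold above it with the median length. It was 4.96-fold above that of *Fcgr4*, which had 0.883 CPM and 0.703 CPM per kb. *Trem2*, a lipid-sensing receptor that signals through DAP12, had 0.438 CPM, the lowest of the group, and 0.415 CPM per kb. Per length its adaptor *Tyrobp* was 16.4-fold higher, or 8.23-fold with the 2 rows of *Trem2* summed.

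The genes *Fcgr2b*, *Fcgr4*, *Fcgr3* and *Fcer1g* lie in this order on chromosome 1, between 170960558 and 171234349 of GRCm38. Of the windows of 51 bases in the *Fcgr3* transcript, 12.6% also occur in *Fcgr2b*, and the longest stretch the 2 share is 129 bases. Their coding sequences were identical at 83.4% of aligned bases. *Fcgr3* and *Fcgr4* were identical at 62.8% and shared no stretch over 14 bases, so reads of 51 bases can tell these 2 apart.

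The scavenger, lectin and pattern receptors were all measured at 1 CPM or more, at modest levels per length. *Cd14*, the co-receptor for bacterial lipopolysaccharide, had 4.09 CPM and 2.49 CPM per kb. *Mrc1*, the mannose receptor CD206, had the highest CPM of the group, 12.8, and 2.38 CPM per kb. Their order per length turned with the median length, at 3.44 CPM per kb for *Mrc1* and 3.26 for *Cd14*, and with summed rows *Clec4n* (4.31) exceeded both. *Clec4n*, which encodes the lectin Dectin-2, stood at 1.46 CPM per kb, and *Clec7a*, which encodes Dectin-1, at 0.869 CPM per kb. *Cd163*, the haemoglobin scavenger receptor, had 2.49 CPM and 0.560 CPM per kb, and *Msr1*, the class A scavenger receptor, 1.82 CPM and 0.501 CPM per kb. The mannose receptor was thus 4.25-fold above *Cd163* and 4.75-fold above *Msr1* per length. With summed rows these folds were 2.13 and 2.10, and with the median length 6.08 and 2.69. None of the 6 genes lay above the median of genes with at least 1 CPM.

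The subunits of the phagocyte oxidase were not present in equal amounts. *Cybb*, the catalytic membrane subunit gp91-phox, had 7.67 CPM and 1.61 CPM per kb. *Cyba*, its membrane partner p22-phox, had 47.5 CPM and 63.9 CPM per kb, the highest level of all members and above 98.3% of all genes with a length. The fold between the 2 partners depended on the length: it was 39.6 with the representative transcripts, 7.19 with the median length, where *Cybb* had 9.69 CPM per kb, and 6.19 in CPM without division by length. With summed rows it was 76.6, and *Cyba* was the higher under each choice. *Cyba* also serves oxidases of cells other than phagocytes, *Nox4* of the kidney tubule among them. *Ncf1*, or p47-phox, had 3.01 CPM and 1.11 CPM per kb, a level that *Cybb* exceeded 1.46-fold, or 4.82-fold with the median length. *Ncf4*, or p40-phox, had 0.593 CPM and 0.405 CPM per kb, and *Cybb* exceeded it 3.99-fold, or 11.7-fold with the median length. *Rac2*, a GTPase of blood cells that takes part in activating the oxidase, was not a member and was named after its value was seen. It stood at 0.810 CPM per kb. Its level was 5.36 CPM per kb with the median length.

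The repair-type and activation genes were the lowest group, with a median of 0.193 CPM per kb over 5 genes, and none of them lay above the median of all genes. The median of the identity genes was 12.2-fold higher and that of the Fc receptors and adaptors 15.6-fold higher. With the median length both folds were 11.4, and with summed rows 18.6 and 18.1, and the group stayed the lowest of the 6. *Retnla*, which encodes the secreted protein FIZZ1, had 0.596 CPM and 0.995 CPM per kb. *Nos2*, the inducible nitric oxide synthase, had 1.08 CPM and 0.258 CPM per kb, and was the only gene of the group with at least 1 CPM. *Arg1*, or arginase 1, had 0.285 CPM and 0.193 CPM per kb. *Gpnmb*, a glycoprotein of lysosome-rich macrophages, had 0.287 CPM and 0.0775 CPM per kb. *Chi3l3*, which encodes the chitinase-like protein Ym1, had 0.0842 CPM and 0.0547 CPM per kb, the lowest CPM of all members and near the floor of 0.0263 CPM. With the median length, 361 bases in place of 1539, *Chi3l3* had 0.233 CPM per kb, above *Gpnmb* at 0.156.

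The inflammatory marker and the repair marker were both below the median of all genes per length, and their order depended on the length. The level per length of *Nos2* was 1.34-fold that of *Arg1* with the representative transcripts, but with the median length *Nos2* had 0.316 and *Arg1* 0.405 CPM per kb. The mannose receptor *Mrc1*, which is also used as a mark of repair-type cells, was 12.4-fold above *Arg1* per length. It was grouped with the scavenger receptors, whereas *Nos2*, the inflammatory marker, was grouped with the repair-type and activation genes. The median of that group is therefore not a median of repair-type genes alone. Of the windows of 51 bases in the *Chi3l3* transcript, 28.7% also occur in another gene, 17.9% in *Chil4*, which the table lists as *Chi3l4* with 0.0523 CPM.

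**Figure D2:**
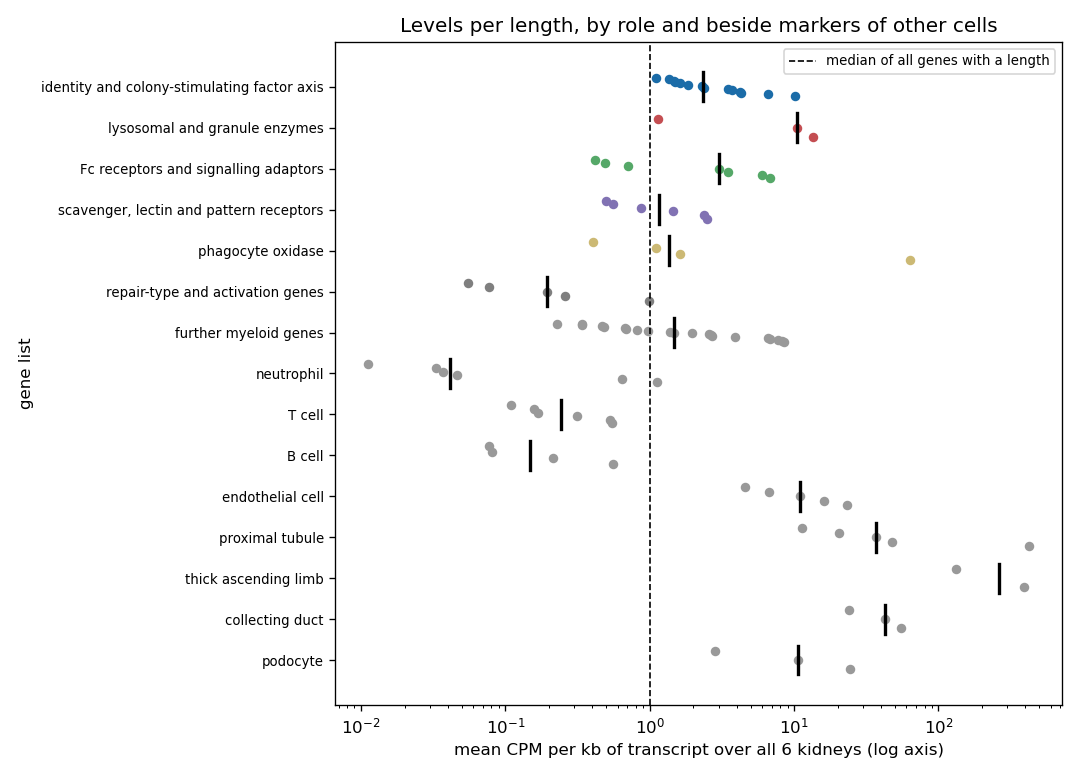
Mean CPM per kb of transcript over all 6 kidneys (log axis) for the 6 role groups (coloured points, 1 per gene), further myeloid genes and markers of other cells (grey points). Black bars are medians and the dashed line is the median of all genes with a length (1.01 CPM per kb). The median of the repair-type and activation genes, 0.193, lies to the left of those of the other role groups. *Retnla* of this group, at 0.995, lies to the right of single genes of other groups. The tubule markers lie to the right of nearly all macrophage genes.

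To place these levels, lists of markers of other cells were read on the same scale. The median of the 39 members, 1.61 CPM per kb, was exceeded 6.85-fold by 5 endothelial markers (11.1 CPM per kb) and 22.7-fold by 5 proximal tubule markers (36.7 CPM per kb). With the median length these folds were 7.64 and 60.6, and with summed rows 11.8 and 39.3. The medians of the other leukocyte lists were below the median over all members, but that of the T cell markers was 1.25-fold above that of the repair-type and activation genes. The 6 T cell markers had a median of 0.242 CPM per kb, with *Cd4*, which some macrophages also express, at 0.551. The 4 B cell markers had a median of 0.147 CPM per kb. Of 6 measured neutrophil markers none reached 1 CPM, and their median was 0.0413 CPM per kb. *Mpo*, *Elane* and *Camp*, made by neutrophil precursors, had 0.0310, 0.0324 and 0.0278 CPM, next to the floor. *S100a9*, which mature neutrophils express strongly, was the highest of the list with 0.586 CPM and 1.13 CPM per kb. That lay above the median of all genes with the representative transcripts, beside *Ncf1* at 1.11. With the median length (1.14) and with summed rows (1.13) *S100a9* lay below that median, which was then 1.56 and 1.48. *Lyz2*, *Cybb*, *Fcer1g* and *Tyrobp* are also expressed by neutrophils, and the part of neutrophils in their levels was not tested.

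A second list of 21 myeloid genes outside the members had a median of 1.46 CPM per kb. The highest was *C1qa*, a chain of the complement component C1q that macrophages make, at 8.49 CPM per kb with the representative transcripts, although *Lcp1*, an actin-bundling protein of blood cells, exceeded it with the median length (28.1) and with summed rows (22.8). The lowest was *Fgr*, a Src-family kinase of myeloid cells, at 0.228 CPM per kb. *Emr1*, which encodes the macrophage antigen F4/80 and was named after its value was seen, had 4.49 CPM and 1.39 CPM per kb. In this list 18 of 21 genes had at least 1 CPM, as against 32 of 39 members.

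Of the 39 members, 19 had more than 1 row in the table. In 11 of these all rows lay within 1.1-fold of each other, as for the 2 rows of *Cd163* at 2.49 and 2.48 CPM. In 6 they differed by more than 1.5-fold. The 2 rows of *Ms4a6c* had 4.38 and 0.997 CPM, and those of *Ccr2* ran from 4.41 to 0.643 CPM. *Msr1* had 1.82 CPM in its highest row and 1.09 CPM in its lowest.

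Whether reads of 51 bases can be assigned to a gene was examined for all 39 transcripts against the 141767 transcripts of the GENCODE annotation, without a search of the genome itself. In 28 members no window of 51 bases occurred in another gene. In 6 members more than 10% of the windows did. The largest share was that of *Ms4a6c*, at 56.7%. Most of these windows, 55.3% of the transcript, lie in *BE692007*, a non-coding transcript that overlaps *Ms4a6c* on the opposite strand. The libraries were strand-specific, but whether strand was used in counting is not given in the sources used here, so the level of *Ms4a6c* is uncertain. In *Fcgr2b* 12.4% of the windows were shared, with 143 other genes.

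**Figure D3:**
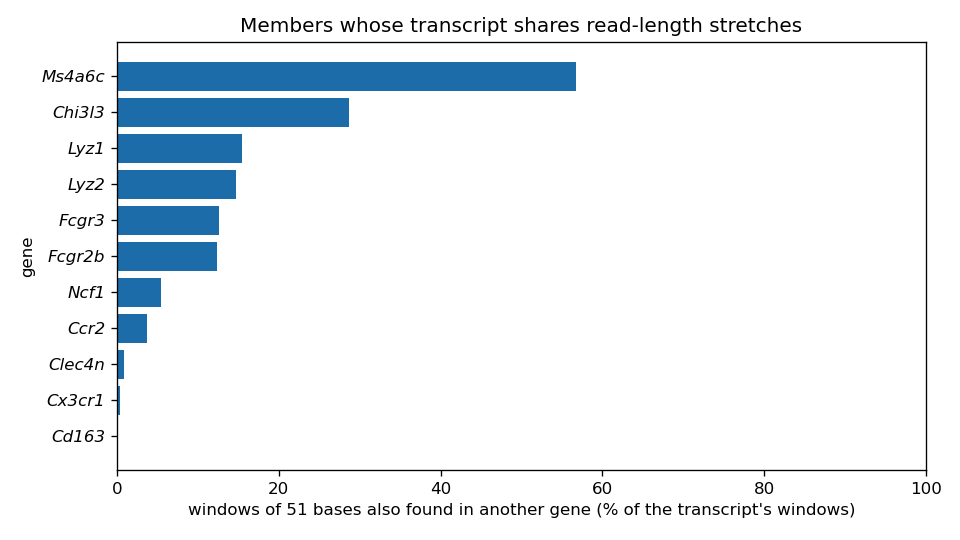
Share of 51-base windows of a member's transcript that also occur, on either strand, in a transcript of another gene, for the 11 members with any (bars, % of windows, axis from 0 to 100). *Ms4a6c* stands apart at 56.7%, followed by *Chi3l3* at 28.7%, and *Lyz1*, *Lyz2*, *Fcgr3* and *Fcgr2b* lie between 12.4% and 15.4%.

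PU.1 binds purine-rich DNA in the control regions of many macrophage genes, so the promoters of the members were searched for its core letters GAGGAAGT on both strands. These and the other letters below were chosen after the levels were seen. Promoter sequences from RefSeq (GRCm38.p6, 250 bases before to 50 after the start) were matched by symbol to 30 of the 39 members. The 32851 sequences covered 27025 genes, so a gene could have several starts. Of these, 5 (16.7%) held the 8 letters, against 3.69% of 27025 genes. The members were *Cd53*, *Ctss*, *Fcgr4*, *Pld4* and *Retnla*. The shorter run GAGGAA, which is part of the longer one, was found in 16 of 30 members and in 31.3% of all genes. A match of this kind is a description of the sequence, and binding of PU.1 was not measured. The letters TATAAA were found in 20.0% of members and 15.7% of genes, and the C/EBP core letters TTNNGCAA in 16.7% of members and 12.2% of genes.

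The 60 bases around the match are shown for 4 members, so that its letters and surroundings can be compared. In these it lies nearest to a start used for the promoter sequences. Each is read 5′ to 3′ on the strand of its gene, and capitals mark the match, which appears as ACTTCCTC where it lies on the opposite strand. *Cd53* is shown from chr3:106790110-106790169 (minus strand), *Ctss* from chr3:95526758-95526817, *Fcgr4* from chr1:171018876-171018935 and *Pld4* from chr12:112760638-112760697 (all plus strand).

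Cd53: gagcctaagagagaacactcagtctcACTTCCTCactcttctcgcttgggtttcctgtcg
Ctss: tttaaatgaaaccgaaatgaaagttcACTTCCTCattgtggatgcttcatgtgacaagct
Fcgr4: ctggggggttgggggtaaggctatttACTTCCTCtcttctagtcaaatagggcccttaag
Pld4: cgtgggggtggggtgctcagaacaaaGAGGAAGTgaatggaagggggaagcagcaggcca

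The match begins 24 bases before the start in *Fcgr4* and 2 bases before it in *Ctss*. In *Cd53* it begins 6 bases after the start. In *Pld4* it begins 9 bases after a start that lies inside the gene, downstream of its first base at chr12:112760446. In *Retnla* it lies 198 bases before the start. The 4 genes with a match near such a start ranged from 0.703 CPM per kb for *Fcgr4* to 10.4 CPM per kb for *Ctss*. Members with the letters near a start thus differed widely in level.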

How the data were processed

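The deposited log2 values are the logCPM that edgeR gave the authors, 1 average abundance for each transcript over 6 kidneys. Whether a small count was added before the logarithm is not given in the sources used here, so values next to the floor are uncertain. Per the labels and the study's methods, trimmed 51 bp single-end reads were mapped to mm10 with TopHat2 2.0.12, alignments with a mapping quality under 10 were discarded, and the authors used edgeR 3.2.4. The tools Cufflinks, featureCounts and Subread 1.4.6 are named in the submitters' processing notes. The table also holds the authors' own comparison of the groups (fold changes, statistics and p-values), which was not used. An edgeR test of DKO against SKO, planned in case counts were given, was not possible without counts of single kidneys.

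A gene was its row with the highest log2 CPM. Lengths came from GENCODE M21 transcripts by RefSeq identifier, or by symbol for 1 member (*Cd68*). For the 4 members whose highest row was assembled, the length of their RefSeq transcript was used. Windows of 51 bases were compared with all GENCODE transcripts, and this step was tested on simulated data. CPM summed to 1007270 over all rows. Reads that overlap several transcripts may have been counted for each. The 2 rows of *Ctss*, for example, had the same level of 14.1 CPM. All members were described. Members and lists were chosen with earlier results of these data known. Python 3.11.15, numpy 2.4.6, pandas 2.3.3 and matplotlib 3.10.9 were used.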

Additional observations from a re-analysis of the deposited data

How the results depend on the processing

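With no error for any value, a level was taken as unchanged when it moved by less than 1.5-fold. Summing all rows of a gene, which can count a read more than once, raised the median of the identity genes to 3.58 CPM per kb and that of the scavenger, lectin and pattern receptors to 2.06 CPM per kb, and the other 4 medians moved by less. The same choice moved the CPM of 17 of 39 members, all upwards. Using RefSeq rows alone, or subtracting the lowest CPM, moved none of the 39 by that much. RefSeq rows alone could only change the 4 members whose highest row was assembled. Subtracting the lowest CPM took *Chi3l3*, near the floor, from 0.0842 to 0.0578 CPM. Leaving out members under 1 CPM could not change the medians of the identity genes, the lysosomal enzymes or the scavenger, lectin and pattern receptors. These groups had no such member. The medians of the Fc receptors and of the oxidase moved by less than 1.5-fold. For the repair-type and activation genes only *Nos2* was left, at 0.258 CPM per kb. With the median length of all annotated transcripts of a gene, the level per length of 15 of 39 members moved, which turned the orders of single genes named above. That length also raised the medians of the identity genes to 3.61, of the oxidase to 5.85 and of the repair-type and activation genes to 0.316 CPM per kb. This alternative was added for medians after the data were seen. Without division by length, the phagocyte oxidase ranked 2 and the Fc receptors and adaptors 4 among the 6 groups by median CPM, in place of 4 and 2. The lysosomal enzymes stayed first and the repair-type and activation genes last. Read only against genes with at least 1 CPM, the members that reached 1 CPM had a median of 21.2% of genes below them, less than against all gene symbols. The planned test of DKO against SKO with its alternatives (DESeq2, no filter, each kidney left out) was not run. No paired analysis was possible because no kidney has values of its own.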
